A study of Mus musculus with 24 samples.

Results

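The transcripts examined here encode the proteins of glycolysis, lactate handling, and glycogen metabolism in cultured mouse muscle exercised with light. They were chosen by name, as a list of 37 gene symbols that covers glucose transporters, glycolytic enzymes, lactate dehydrogenases and lactate carriers, regulators of phosphofructokinase, and the enzymes that break down and build glycogen. The 37 symbols matched 38 of the 56941 gene rows in the deposited tables, because Aldoa stood on 2 rows. The second Aldoa row (ENSMUSG00000114515) carries the name Gm57854 in GENCODE M39 and held between 3 and 25 estimated counts in each library. All 38 rows passed the filter on low counts, which left 13315 genes for testing.

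The tissues were grown on fibrin hydrogels from C2C12 myoblasts, an established mouse muscle cell line, and differentiated in medium that held horse serum (10%) and IGF-1 at 50 ng/ml. All groups, the controls included, carried ChR2::tdTomato, a light-gated cation channel joined to a red fluorescent reporter. The 24 libraries formed 4 groups of 6, with unstimulated controls and tissues that received light pulses for 60 min daily at 1, 4, or 10 Hz. A single cell line with a single transgene was used, and such tissues also contract spontaneously without light, so the unstimulated controls were not fully at rest. Each library was treated by the study as a separate biological replicate, and the p-values below measure the spread between these libraries.

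Glycolysis converts glucose to pyruvate in the cytosol and yields ATP quickly, without oxygen. Glucose enters through GLUT transporters, is trapped by hexokinase, and is committed to the pathway by phosphofructokinase. Lactate dehydrogenase interconverts pyruvate and lactate, which crosses the membrane through monocarboxylate transporters that need basigin as a partner. Skeletal muscle stores glucose as glycogen, breaks it down with glycogen phosphorylase during contraction, and uses muscle-specific isozymes at several steps, whose genes are switched on as myoblasts become fibers.

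Total estimated counts ranged from 8052369 to 18159144 per library, with a biological coefficient of variation of 14.78%. All 10 skeletal muscle markers stood at 1 TPM (length-normalised transcript level) or more in every library. Their summed level ran from 11927 to 15381 TPM in the controls, from 8507 to 12414 at 1 Hz, from 8794 to 12934 at 4 Hz, and from 11478 to 12434 at 10 Hz. The summed endothelial markers reached at most 0.961 TPM and none of the 4 fat cell markers was at 1 TPM in all libraries of a group, whereas 4 of 5 fibroblast markers were at 1 TPM or more in all libraries, with sums of 264 to 439 TPM in the controls, 177 to 392 at 1 Hz, 213 to 319 at 4 Hz, and 308 to 432 at 10 Hz. Of 5 immune markers, 1 was at 1 TPM or more in all libraries, with sums of 74.2 to 102 TPM in the controls, 55.1 to 86.1 at 1 Hz, 55.7 to 93.2 at 4 Hz, and 59.6 to 78.9 at 10 Hz. In bulk RNA, fewer cells of a type and less RNA per cell cannot be told apart. The 5 libraries that stood apart from the rest were replicates 4 and 6 at 1 Hz and replicates 1, 3, and 4 at 4 Hz. They drew 6.82% to 7.58% of their counts from ribosomal protein genes, against 4.38% to 5.07% in the controls. In the remaining libraries this share was 4.51% to 5.88% at 1 Hz, 5.32% to 5.73% at 4 Hz, and 4.26% to 5.39% at 10 Hz. The remaining 4 Hz libraries were thus also above every control, and leaving out the 5 libraries did not remove this difference. The share of counts from mitochondrial genes was 1.37% to 2.72% in the controls, and in these 5 libraries it was 3.97% and 4.87% at 1 Hz and 0.545% to 8.90% at 4 Hz. The part of these shares and of the markers in the results below was not tested, apart from the values without the 5 libraries. In the 5 libraries short transcripts were also high relative to long ones, and the calls that were lost or gained without them are given below. Short minus long on each library's length trend was 0.519 to 0.813 log2 units in the 5 and at most 0.014 in the controls. It was 0.175 and 0.163 in 4 Hz replicates 5 and 6, and up to 0.160 at 10 Hz.

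The upstream sequences of 4 genes are shown first, because these genes rose at both 1 and 4 Hz on scaled counts in the results below and their 250 bases before the annotated start held no annotated exon. The letters searched were ACGTG and GCGTG on both strands, the core bound by hypoxia-inducible factors, which are known regulators of many glycolytic genes. Capitals mark each match, and lower case marks all other bases. Sequences were read 5′ to 3′ on the gene's strand from the GRCm39 genome, with gene starts from GENCODE M39.
Pfkp: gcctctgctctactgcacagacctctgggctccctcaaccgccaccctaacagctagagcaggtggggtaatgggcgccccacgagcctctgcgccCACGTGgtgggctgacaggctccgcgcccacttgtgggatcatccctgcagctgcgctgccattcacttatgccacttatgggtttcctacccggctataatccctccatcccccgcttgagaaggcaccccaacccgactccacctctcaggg
Pgk1: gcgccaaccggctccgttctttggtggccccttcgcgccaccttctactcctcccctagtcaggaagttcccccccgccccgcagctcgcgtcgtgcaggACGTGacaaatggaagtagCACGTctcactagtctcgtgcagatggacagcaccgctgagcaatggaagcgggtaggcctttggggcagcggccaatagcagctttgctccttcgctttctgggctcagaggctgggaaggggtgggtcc
Bsg: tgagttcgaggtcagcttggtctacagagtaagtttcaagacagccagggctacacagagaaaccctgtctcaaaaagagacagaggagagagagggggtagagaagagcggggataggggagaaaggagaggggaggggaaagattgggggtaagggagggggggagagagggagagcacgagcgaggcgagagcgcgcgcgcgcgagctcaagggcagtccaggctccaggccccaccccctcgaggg
Gbe1: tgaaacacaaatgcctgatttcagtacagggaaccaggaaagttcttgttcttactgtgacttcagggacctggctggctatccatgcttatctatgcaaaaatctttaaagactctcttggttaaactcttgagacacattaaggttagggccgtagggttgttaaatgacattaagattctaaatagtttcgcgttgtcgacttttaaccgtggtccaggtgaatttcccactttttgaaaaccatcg

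The Pfkp window lies at chr13:6698971-6699220 on the minus strand and holds CACGTG, a palindrome that counts as 2 overlapping matches. The Pgk1 window lies at chrX:105230456-105230705 on the plus strand with 2 separate matches, and neither the Bsg window (chr10:79539893-79540142, plus strand) nor the Gbe1 window (chr16:70110465-70110714, plus strand) held a match. Across the list, 25 of 38 windows (65.8%) held at least 1 match, against 8953 of 21667 windows of all genes (41.3%). Of the 38 windows, 28 overlapped an annotated exon, and among the other 10 a match was found in 5 (50.0%), against 32.0% of the 10572 windows of all genes that held no exon. The windows of the list were also richer in G and C, with a median of 56.4% against 53.2%. These counts describe letters only, and no binding was measured.

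Levels of the 38 transcripts were spread widely on the length-normalised TPM scale. Gapdh stood highest, with 10177 ± 514 TPM (SD, n = 6) in the controls, followed by Aldoa at 4434 ± 244 TPM, Bsg at 2986 ± 148 TPM, Pkm at 2652 ± 146 TPM, and Pgk1 at 2214 ± 80.7 TPM. The lowest was Phkg1, the catalytic subunit of phosphorylase kinase in muscle, at 1.015 ± 0.40 TPM. The 38 transcripts together made up 3.28% ± 0.14 of all TPM in the controls (SD, n = 6), and this share was 3.16% ± 0.36 at 1 Hz, 3.21% ± 0.53 in the 4 Hz condition, and 3.29% ± 0.04 at 10 Hz. The pool as a whole thus differed between groups by less than its spread within the 1 and 4 Hz conditions.

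**Figure D1:**
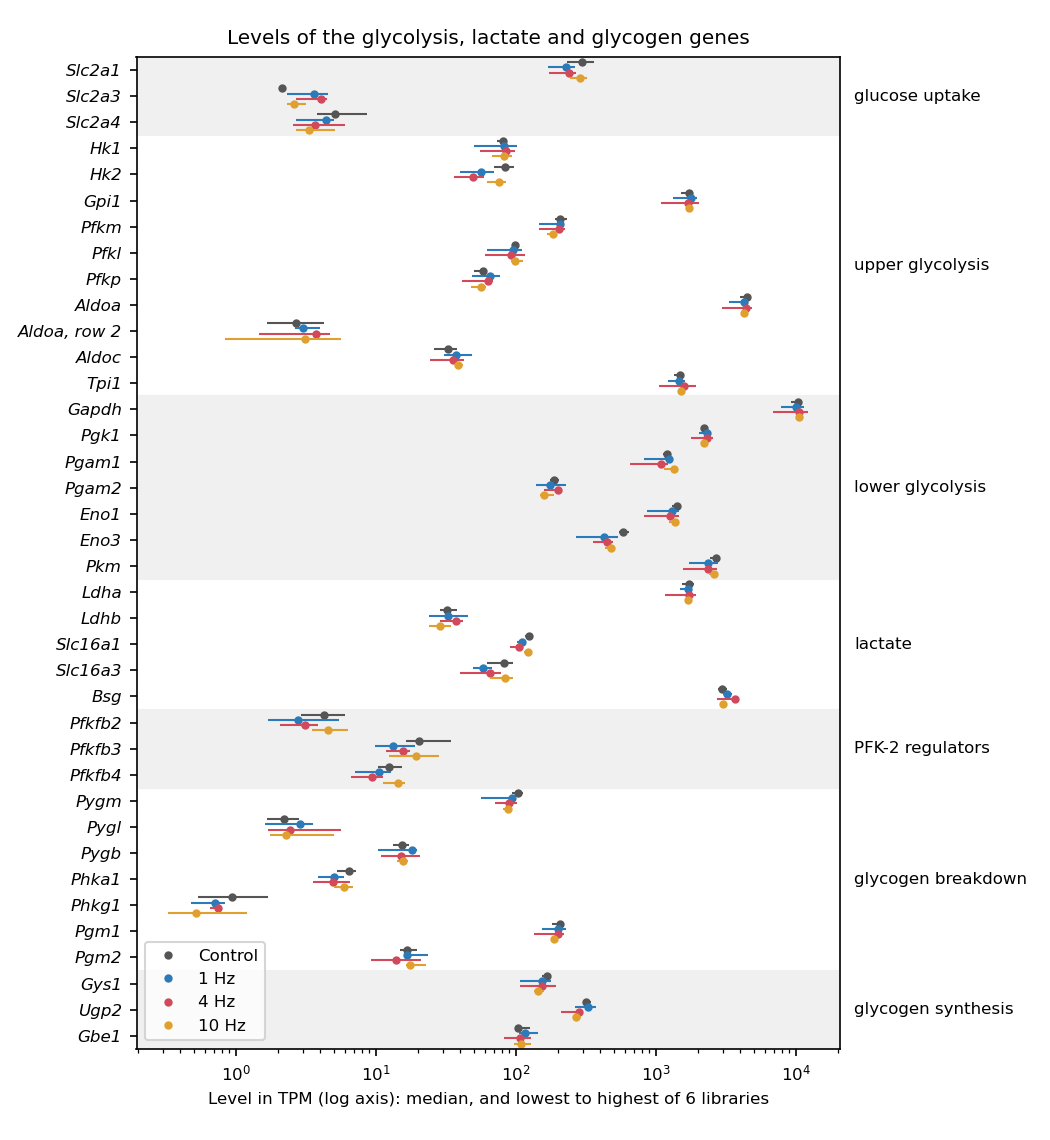
Level of each transcript in TPM on a logarithmic axis, grouped by role. Points are medians, lines run from the lowest to the highest of 6 libraries, and colors mark the 4 groups. Slc2a3 sat above the controls at 1 and 4 Hz, Hk2 sat below them at 4 Hz and just reached them at 1 Hz (70.2 TPM beside a lowest control of 70.0), and most other ranges overlapped on this scale.

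Stimulated tissues were compared with unstimulated controls to ask which steps of the pathway followed the exercise frequency. On TMM-scaled counts, 8 of 38 rows rose and 1 fell at 1 Hz (edgeR quasi-likelihood test, adjusted p under 0.05), where 19.2% of all genes tested rose and 18.1% fell. At 4 Hz, 19 rows rose and 2 fell, where 27.5% of all genes rose and 23.9% fell. At 10 Hz, 0 rows passed, where 0.015% of all genes rose and 0.0225% fell. The share of rows that rose at 1 Hz was thus near the background, the share at 4 Hz was above it, and the share that fell was below it at both frequencies. Without 4 Hz replicate 4 the number at 4 Hz dropped to 12 of 38 rows, which was still above the 22.3% of all genes. In the TPM test described below the excess did not hold, since 2 of 37 rows rose there, near the 5.83% of all genes. By the stricter rule that also asks for an absolute log2(fold change) over 0.5, only Slc2a3 rose at 1 Hz (7.19% of all genes rose by this rule), and only Slc2a3 and Bsg rose at 4 Hz (12.8% of all genes).

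The fold changes were small for most members. The median log2(fold change) over the 38 rows was 0.137 for 1 Hz, 0.249 for 4 Hz, and -0.003 for 10 Hz, beside medians over all genes of 0.041, 0.061, and 0.007. The 1 Hz median dropped to 0.049 when replicate 4 was left out, and the 4 Hz median dropped to 0.157 when its own replicate 4 was left out. It was above 0 for 28 rows at 1 Hz (54.5% of all genes), 30 rows at 4 Hz (55.3%), and 19 rows at 10 Hz (52.1%). In TMM-scaled CPM every stimulated library lay above all 6 controls for 4 rows at 1 Hz (5.55% of all genes) and 9 rows at 4 Hz (12.9%). The 9 rows at 4 Hz were Slc2a3, Pfkp, Aldoc, Tpi1, Pgk1, Ldha, Ldhb, Bsg, and Gbe1. In the opposite direction, every library lay below all controls for Hk2 alone at 1 Hz (8.58% of all genes) and Hk2 alone at 4 Hz (14.7%).

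**Figure D2:**
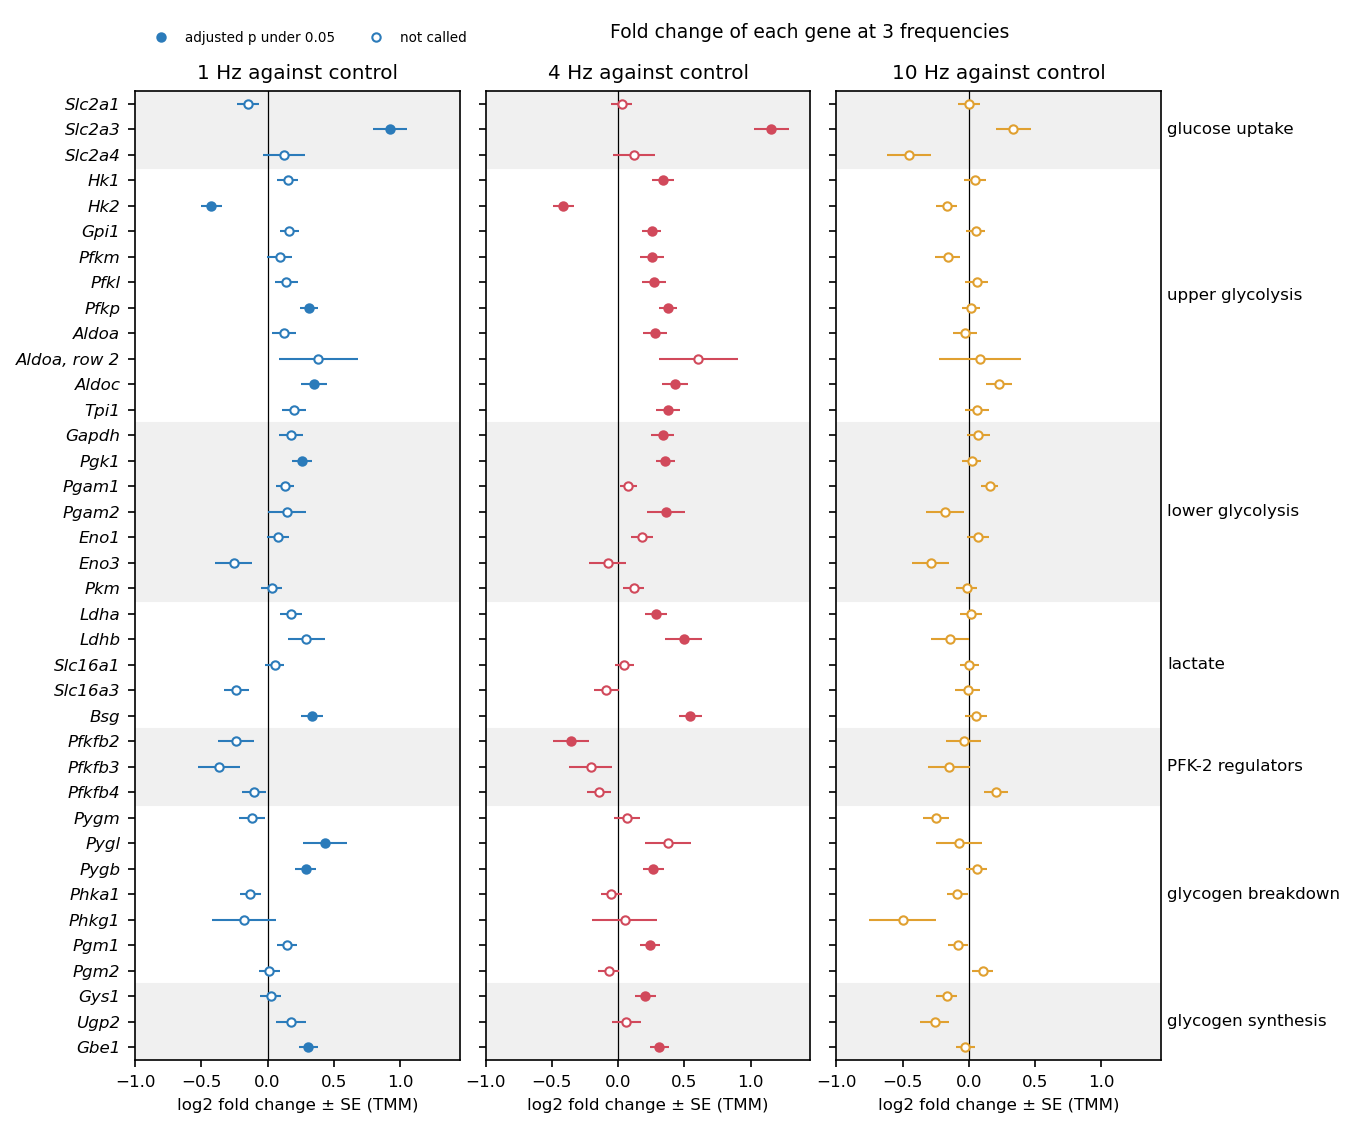
Log2(fold change) against unstimulated controls for each transcript at 1, 4, and 10 Hz on TMM-scaled counts, grouped by role, with bars of 1 SE from the edgeR fit and marks for the rows that passed the test. Most points at 1 and 4 Hz lie between 0 and 0.5, Slc2a3 lies at 0.92 and 1.16, and Hk2 lies below -0.4 at both.

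Many of these differences changed sign between tests on counts and tests on TPM. The 3 scales compared were counts scaled by edgeR's TMM method, the same counts after each library's trend on transcript length was removed (a choice made after seeing the data), and log2(TPM + 1) tested with limma, which understates the change of low genes. The TPM test differs from the others in unit, length normalization, scaling, filter, and model together, and which of these moved the values was not tested. Scaling the counts by RLE or upper quartiles alone left 18 and 20 rows higher at 4 Hz, where 25.3% and 29.9% of all genes rose. On the TPM scale the median of all genes itself moved by -0.144 at 1 Hz and -0.209 at 4 Hz. There 1 row rose and 6 fell at 1 Hz out of 37 rows tested, where 3.58% of all genes rose and 21.9% fell. At 4 Hz, 2 rows rose and 9 fell, where 5.83% of all genes rose and 35.9% fell, so that the rows that rose on this scale were near the background at both frequencies and the rows that fell were below it. Relative to the median of all genes, the median of the rows was higher on each scale. The excess was 0.096, 0.093, and 0.049 at 1 Hz and 0.188, 0.131, and 0.121 at 4 Hz on the TMM, length-adjusted, and TPM scales. On the TMM scale it became 0.046 at 1 Hz without 1 Hz replicate 4 and 0.128 at 4 Hz without 4 Hz replicate 4, and 0.030 and 0.145 without the 5 libraries that stood apart. Only Slc2a3 (higher) and Hk2 (lower) passed in the same direction on all 3 scales at 1 Hz, and only these and Bsg (higher) did so at 4 Hz. The trend on length was itself large, since the shortest 10% of all genes had a median log2(fold change) of 0.328 at 1 Hz and 0.478 at 4 Hz, and the longest 10% had -0.111 and -0.164. With this trend removed, 9 rows rose and 3 fell at 1 Hz (19.2% and 19.1% of all genes), and 17 rose and 1 fell at 4 Hz (24.8% and 24.6%). At 4 Hz the calls for Aldoa (0.14, adjusted p = 0.0671), Gapdh, Pgam2, and Pfkfb2 were lost and Pygl was gained (0.42, adjusted p = 0.0435), whereas at 1 Hz Hk1 was gained as higher (0.23, adjusted p = 0.0175) and Eno3 and Slc16a3 as lower.

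Without the 5 libraries that stood apart, 12 rows rose and 1 fell at 4 Hz, where 16.9% of all genes rose and 19.9% fell. The 7 rows that were no longer called higher were Pfkm, Pfkl, Aldoa, Pgam2, Ldha, Pygb, and Gys1 (adjusted p from 0.0510 to 0.114), and Pfkfb2 was no longer called lower. At 1 Hz no call was lost, Hk1, Gpi1, and Pgam1 were gained as higher, and Eno3, Slc16a3, and Pygm as lower. In this run 15.8% of all genes rose and 16.4% fell at 1 Hz.

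**Figure D3:**
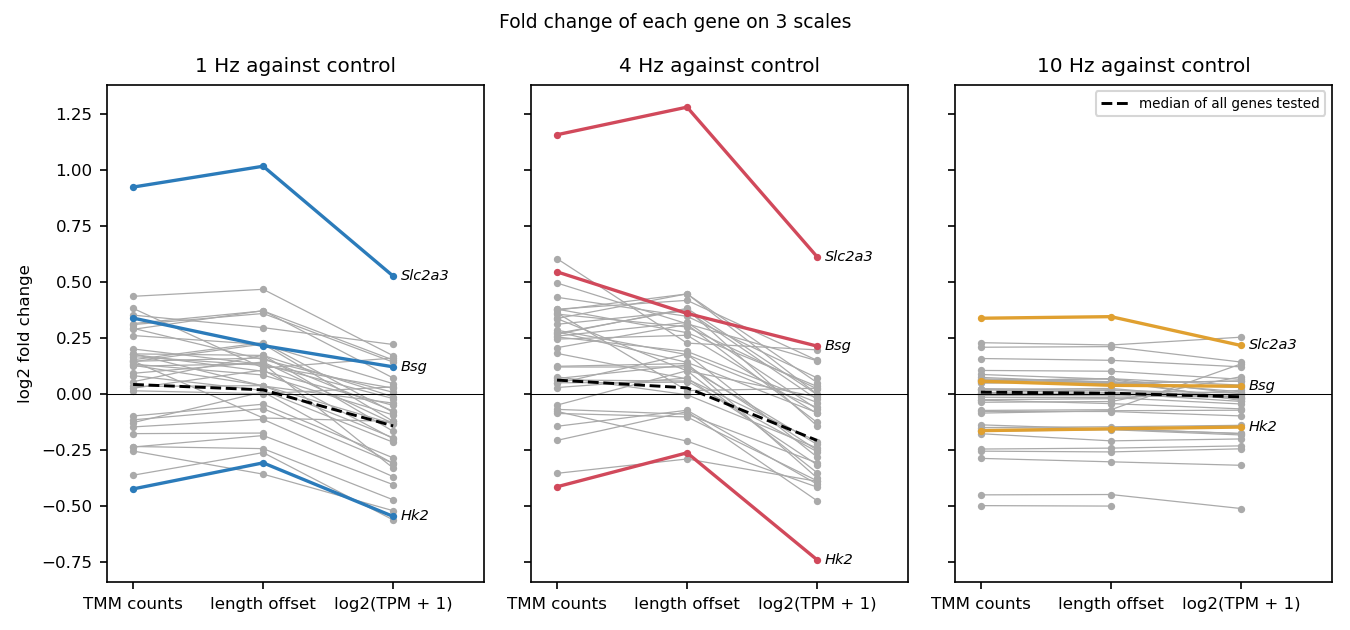
Log2(fold change) of each transcript (grey lines) on 3 scales at 1, 4, and 10 Hz, with Slc2a3, Bsg, and Hk2 in color and the median of all genes tested as a dashed line. On the TPM scale the dashed line falls to -0.144 at 1 Hz and -0.209 at 4 Hz and most lines fall with it, whereas at 10 Hz the 3 scales give nearly flat lines.

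Glucose transporters showed 1 clear difference, in the one with the lowest mean TPM. Slc2a3 (GLUT3, chr6:122704768-122778599, minus strand), a high-affinity glucose transporter best known from neurons, ranged from 4.89 to 5.77 TMM-scaled CPM (counts as a share of the library) in the controls, with a median of 5.47. It ran from 8.14 through 10.6 to 12.5 CPM (lowest, median, highest) at 1 Hz, from 8.29 through 12.5 to 14.6 CPM at 4 Hz, and from 5.82 through 6.78 to 7.99 CPM at 10 Hz. In CPM no library at 1 or 4 Hz overlapped with the controls or with the 10 Hz condition, and every 10 Hz library was also above the highest control, by a small margin. The log2(fold change) was 0.92 ± 0.13 (SE) at 1 Hz (adjusted p = 6.57e-06) and reached 1.16 ± 0.13 at 4 Hz (adjusted p = 1.4e-07). At 10 Hz it was 0.34 ± 0.13 and missed the threshold (adjusted p = 0.504). On the TPM scale the difference was 0.53 at 1 Hz and 0.61 at 4 Hz, and without the 5 libraries that stood apart it was 0.98 and 0.91. These differences are large in proportion but rest on 49 to 172 counts per library, and Slc2a3 remained a minor transporter, at 0.728% ± 0.14 of the summed TPM of the 3 transporters in the controls and 1.59% ± 0.26 at 4 Hz (SD, n = 6). The Slc2a3 locus overlaps the gene models Gm4482 and Gm57000 on its own strand and Gm66539 on the other, whose reads were not separated here.

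Slc2a1 (GLUT1), the basal transporter, carried 97.4% ± 0.67 of the summed transporter TPM in the controls. It ran from 384 through 473 to 554 CPM in the controls, from 393 through 419 to 470 CPM at 1 Hz, from 436 through 476 to 544 CPM at 4 Hz, and from 434 through 466 to 542 CPM at 10 Hz. All 4 ranges overlapped, and none of the comparisons with control passed on TMM-scaled counts (log2(fold change) -0.15 ± 0.08 for 1 Hz and 0.03 ± 0.08 for 4 Hz), whereas on the TPM scale it fell at both (-0.37 and -0.32, or -0.23 and -0.11 relative to the median of all genes). Slc2a4 (GLUT4), the insulin- and contraction-responsive transporter of mature muscle, was low in these cultures, with control libraries from 5.72 through 6.99 to 7.96 CPM. It ran from 4.65 through 7.6 to 10.5 CPM at 1 Hz, from 5.09 through 7.82 to 9.05 CPM at 4 Hz, and from 4.23 through 5.24 to 5.50 CPM at 10 Hz. In CPM all 10 Hz libraries lay below the lowest control, whereas in TPM the ranges overlapped (2.67 to 5.10 at 10 Hz and 3.81 to 8.66 in the controls). At 10 Hz Slc2a4 had a log2(fold change) of -0.45 ± 0.16, which did not pass after adjustment (adjusted p = 0.432). Against the other stimulated groups it was lower at 10 Hz, by -0.58 ± 0.16 relative to 1 Hz (adjusted p = 0.0112) and -0.57 ± 0.17 relative to 4 Hz (adjusted p = 0.00676), but neither passed on the TPM scale (-0.18 and -0.14). There the medians of all genes were 0.132 and 0.204.

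The hexokinases, which phosphorylate glucose on entry, moved apart. Hk2 (chr6:82699740-82751469, minus strand), the isozyme typical of insulin-sensitive muscle, ran from 246 through 284 to 319 CPM in the controls, from 176 through 216 to 235 CPM at 1 Hz, from 194 through 214 to 229 CPM at 4 Hz, and from 223 through 253 to 274 CPM at 10 Hz. In CPM every library at 1 and 4 Hz was below every control, and the 10 Hz libraries overlapped with both. The log2(fold change) was -0.43 ± 0.08 (SE) at 1 Hz (adjusted p = 0.000177) and reached -0.42 ± 0.08 at 4 Hz (adjusted p = 0.000128). The values were -0.31 and -0.26 on the length-adjusted scale, -0.55 and -0.74 on the TPM scale, and -0.41 and -0.44 without the 5 libraries that stood apart. Relative to the median of all genes the TPM values were -0.40 and -0.53. Hk1, the ubiquitous isozyme, ran from 176 through 191 to 207 CPM in the controls and from 198 through 245 to 286 CPM at 4 Hz, where it rose by 0.34 ± 0.08 (adjusted p = 0.00142) on TMM-scaled counts, although it was -0.0017 on the TPM scale. That value is 0.21 above the median of all genes on the TPM scale. As a share of the summed Hk1 and Hk2 TPM, Hk2 made up 50.7% ± 2.4 in the controls (SD, n = 6), and its share was 42.6% ± 3.5 at 1 Hz, 37.9% ± 2.1 in the 4 Hz condition, and 47.9% ± 2.9 at 10 Hz.

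Of the 10 rows of upper glycolysis, from hexokinase to triose phosphate isomerase, on TMM-scaled counts 2 rose and 1 fell at 1 Hz (19.2% and 18.1% of all genes), and 8 rose and 1 fell at 4 Hz (27.5% and 23.9%). Pfkp, the platelet-type phosphofructokinase, ran from 105 through 110 to 111 CPM in the controls, from 118 through 137 to 150 CPM at 1 Hz, from 128 through 136 to 167 CPM at 4 Hz, and from 103 through 110 to 115 CPM at 10 Hz. All 12 libraries at 1 and 4 Hz were above the highest control, and the 10 Hz libraries overlapped with the controls. The log2(fold change) was 0.31 ± 0.07 at 1 Hz (adjusted p = 0.000774) and reached 0.37 ± 0.07 at 4 Hz (adjusted p = 7.02e-05), and it was 0.15 and 0.05 on the TPM scale, without passing there. Aldoc, the brain-type aldolase, ran from 25.1 through 34.4 to 36.0 CPM in the controls, from 36.4 through 42.4 to 47.7 CPM at 1 Hz, from 37.5 through 43.5 to 56.8 CPM at 4 Hz, and from 34.5 through 39.1 to 44.5 CPM at 10 Hz. Again no library at 1 or 4 Hz overlapped with the controls. Aldoc rose by 0.35 ± 0.10 at 1 Hz (adjusted p = 0.00683) and by 0.43 ± 0.10 at 4 Hz (adjusted p = 0.000825), with 0.22 and 0.07 on the TPM scale, not called there.

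Gpi1, Pfkm, Pfkl, Aldoa, and Tpi1 rose at 4 Hz by 0.25 to 0.38 on TMM-scaled counts, and all but Tpi1 had values below 0 on the TPM scale. Relative to the median of all genes on the TPM scale they were above 0, from 0.07 (Pfkl) to 0.24 (Tpi1). Gpi1, which isomerises glucose 6-phosphate, rose by 0.25 ± 0.07 (adjusted p = 0.00509), with -0.04 on the TPM scale. Pfkm, the muscle phosphofructokinase, rose by 0.26 ± 0.09 (adjusted p = 0.0218; -0.07 on the TPM scale), and this call was lost in 4 of 12 runs that left out 1 library (without control 3, control 5, 4 Hz 4, or 4 Hz 5; adjusted p from 0.0535 to 0.0851). Pfkl, the liver type, rose by 0.27 ± 0.09 (adjusted p = 0.0141; -0.14 on the TPM scale). Aldoa, the main aldolase of muscle, rose by 0.28 ± 0.09 (adjusted p = 0.0121; -0.08 on the TPM scale). The calls for Pfkl and Aldoa rested on 4 Hz replicate 4, without which the adjusted p was 0.108 and 0.0685. Tpi1, triose phosphate isomerase, rose by 0.38 ± 0.09 (adjusted p = 0.0014; 0.03 on the TPM scale), with every library at 4 Hz above every control. The second Aldoa row did not pass (0.60 ± 0.30, adjusted p = 0.0924).

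In lower glycolysis, 1 of 7 rows rose at 1 Hz (19.2% of all genes) and 3 of 7 at 4 Hz (27.5%) on TMM-scaled counts, and none fell. Gapdh, the redox step of the pathway and a frequent reference gene, ran from 5606 through 6357 to 6517 CPM in the controls, from 6228 through 6931 to 8179 CPM at 1 Hz, from 6472 through 7500 to 9986 CPM at 4 Hz, and from 6054 through 6252 to 7442 CPM at 10 Hz. The 4 Hz range was the widest and reached highest. Gapdh rose by 0.34 ± 0.09 at 4 Hz on TMM-scaled counts (adjusted p = 0.00268), but was 0.10 on the length-adjusted scale (adjusted p = 0.29) and -0.01 on the TPM scale. Gapdh also has 71 near-identical copies in the annotation, whose counts came to 33.8% of its own, and adding them left its calls as they were.

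Pgk1, phosphoglycerate kinase, ran from 2209 through 2416 to 2568 CPM in the controls, from 2512 through 2834 to 3248 CPM at 1 Hz, from 2724 through 3071 to 3621 CPM at 4 Hz, and from 2246 through 2420 to 2613 CPM at 10 Hz. Every 4 Hz library exceeded every control, 5 of 6 did so at 1 Hz, and the 10 Hz libraries overlapped with the controls. Pgk1 rose by 0.26 ± 0.07 at 1 Hz (adjusted p = 0.00693) and by 0.36 ± 0.07 at 4 Hz (adjusted p = 0.000283), and on the TPM scale it was 0.04 and 0.02. Pgam2, the muscle phosphoglycerate mutase, ran from 75.8 through 81.5 to 90.9 CPM in the controls, from 66.3 through 77.4 to 139 CPM at 1 Hz, from 86.9 through 106 to 118 CPM at 4 Hz, and from 63.0 through 66.6 to 86.7 CPM at 10 Hz. The 1 Hz libraries were spread widely around the controls and 5 of 6 libraries at 4 Hz were above them. Pgam2 rose at 4 Hz by 0.36 ± 0.14 (adjusted p = 0.0364), but it is a short transcript, its length-adjusted value was 0.01, and the call was lost in 8 of 12 runs that left out 1 library (controls 2 to 6 and 4 Hz 1, 3, or 4; adjusted p from 0.0540 to 0.104).

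The other 4 rows of lower glycolysis, Pgam1, Eno1, Eno3, and Pkm, did not pass in any comparison with control on TMM-scaled counts. Eno3, the muscle enolase, had a mean of 491 ± 40.9 CPM in the controls (SD, n = 6), beside means of 411 ± 133 for 1 Hz, 465 ± 47.5 for 4 Hz, and 402 ± 45.2 for 10 Hz. The 1 Hz value depended on replicate 4, without which Eno3 fell by 0.45 on the log2 scale (adjusted p = 0.00319). On the TPM scale Eno3 also fell at 1 Hz (-0.52) and at 4 Hz (-0.42), or by -0.38 and -0.21 relative to the median of all genes. Eno1, the ubiquitous enolase, has 3 near-identical copies whose counts came to 67.3% of its own, so its level is uncertain. Pgam1, the non-muscle mutase, was above all controls in each 10 Hz library, at 1295 to 1409 CPM beside 1130 to 1285, with a log2(fold change) of 0.16 ± 0.06 that did not pass (adjusted p = 0.512). In TPM its ranges overlapped, with 1148 to 1390 at 10 Hz beside 1123 to 1267 in the controls.

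Among the lactate genes, Bsg stood out. Bsg (chr10:79540143-79547821, plus strand) encodes basigin, the chaperone that carries lactate transporters to the membrane. It ran from 1922 through 2096 to 2360 CPM in the controls, from 2382 through 2478 to 3242 CPM at 1 Hz, from 2713 through 3018 to 3472 CPM at 4 Hz, and from 2003 through 2140 to 2486 CPM at 10 Hz. All 12 libraries at 1 and 4 Hz were above the highest control, and 10 Hz overlapped with the controls. Bsg rose by 0.34 ± 0.08 (SE) at 1 Hz (adjusted p = 0.003) and by 0.54 ± 0.08 at 4 Hz (adjusted p = 1.09e-05). The 4 Hz value was 0.36 on the length-adjusted scale, 0.21 on the TPM scale (adjusted p = 0.011), and 0.40 without the libraries that stood apart. The 1 Hz value was 0.21 on the length-adjusted scale and 0.12 on the TPM scale, where it did not pass (adjusted p = 0.19).

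Ldha, the muscle-type lactate dehydrogenase that favors lactate formation, made up about 98% of the lactate dehydrogenase TPM in every group. It ran from 1405 through 1565 to 1632 CPM in the controls, from 1541 through 1669 to 2110 CPM at 1 Hz, from 1675 through 1784 to 2316 CPM at 4 Hz, and from 1455 through 1549 to 1716 CPM at 10 Hz. Ldha rose at 4 Hz by 0.28 ± 0.08 (adjusted p = 0.00638), with -0.06 on the TPM scale. Ldhb, the heart-type subunit, ran from 19.8 through 22.9 to 26.3 CPM in the controls, from 19.5 through 24.6 to 40.3 CPM at 1 Hz, from 29.0 through 32.7 to 36.0 CPM at 4 Hz, and from 16.7 through 21.4 to 25.7 CPM at 10 Hz. Both genes had every 4 Hz library above every control, and Ldhb also had every 4 Hz library above every 10 Hz library. Ldhb rose by 0.49 ± 0.14 at 4 Hz (adjusted p = 0.00504), with 0.15 on the TPM scale. The lactate carriers themselves did not pass on TMM-scaled counts. Slc16a1 (MCT1) had means of 352 ± 10.7 (controls) and 363 ± 24.9 CPM (4 Hz), and Slc16a3 (MCT4), the exporter of glycolytic muscle, had means of 104 ± 14.1 (controls) and 88.5 ± 7.7 CPM (1 Hz), where its log2(fold change) of -0.24 ± 0.09 lay at the threshold (adjusted p = 0.0509). Slc16a3 fell at 1 Hz on the length-adjusted scale (-0.25, adjusted p = 0.0254), on the TPM scale (-0.47, adjusted p = 0.0125), and without the 5 libraries that stood apart (-0.30, adjusted p = 0.0151), and it was called lower in 8 of 13 settings. At 4 Hz, Slc16a3 (-0.39, adjusted p = 0.0233) and Slc16a1 (-0.28, adjusted p = 0.00209) fell on the TPM scale, with -0.09 and 0.05 on TMM-scaled counts. Relative to the median of all genes, the TPM values were -0.33 for Slc16a3 at 1 Hz, and -0.18 for Slc16a3 and -0.07 for Slc16a1 at 4 Hz.

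**Figure D4:**
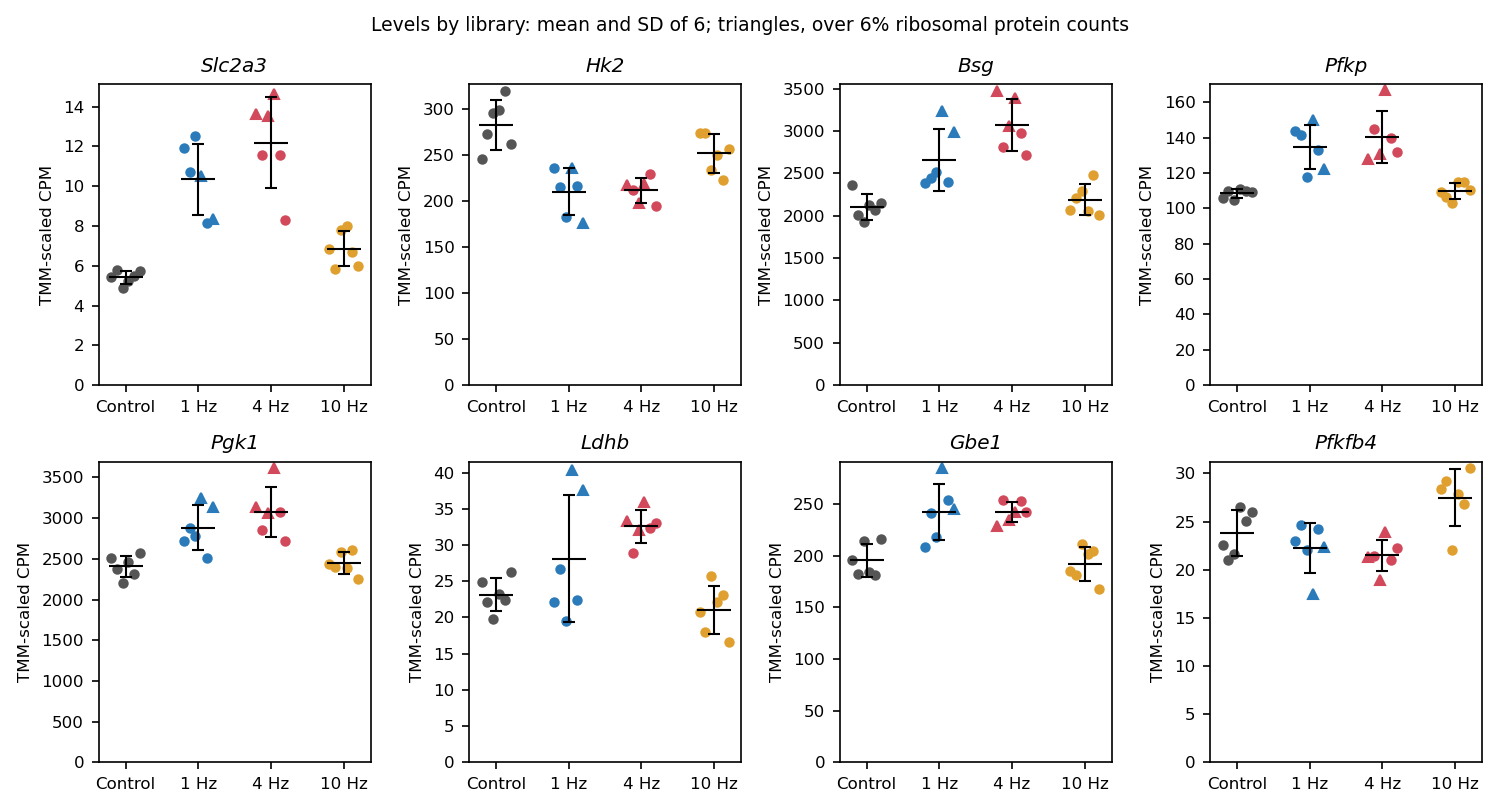
TMM-scaled CPM of Slc2a3, Hk2, Bsg, Pfkp, Pgk1, Ldhb, Gbe1, and Pfkfb4 in each of the 24 libraries, with triangles for the 5 libraries that drew over 6% of their counts from ribosomal protein genes. Slc2a3, Bsg, and Pfkp at 1 and 4 Hz sit above all controls, and Hk2 sits below them.

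The PFK-2 enzymes set the level of fructose 2,6-bisphosphate, the main activator of phosphofructokinase. None of the 3 rose in a comparison with control, and Pfkfb2, the heart-type form, fell at 4 Hz on TMM-scaled counts. Pfkfb2 ran from 6.79 through 8.76 to 10.0 CPM in the controls, from 5.31 through 7.18 to 8.32 CPM at 1 Hz, from 4.58 through 6.84 to 7.66 CPM at 4 Hz, and from 7.11 through 7.95 to 9.62 CPM at 10 Hz. At 4 Hz, 3 of 6 libraries lay below all controls. The log2(fold change) at 4 Hz was -0.36 ± 0.14 (adjusted p = 0.0309), and the call was lost in 5 of 12 runs that left out 1 library (control 3, 5, or 6 and 4 Hz 1 or 4; adjusted p from 0.0515 to 0.0903). It also missed the threshold on the length-adjusted scale (-0.29, adjusted p = 0.0616), on the TPM scale (-0.39, adjusted p = 0.0875), and without the 5 libraries that stood apart (-0.28, adjusted p = 0.142). Pfkfb3, the inducible form, ran from 44.3 through 55.1 to 89.9 CPM in the controls, from 33.3 through 48.3 to 54.8 CPM at 1 Hz, from 40.6 through 52.7 to 58.1 CPM at 4 Hz, and from 40.0 through 49.1 to 75.6 CPM at 10 Hz, and it did not pass on TMM-scaled counts (-0.36 ± 0.16 at 1 Hz, adjusted p = 0.0748). Pfkfb3 fell on the TPM scale, by 0.56 for 1 Hz (limma, adjusted p = 0.0287) and by 0.48 for 4 Hz (adjusted p = 0.0424). Relative to the median of all genes these values were -0.42 and -0.27. Pfkfb4 was highest at 10 Hz. It ran from 21.1 through 23.8 to 26.6 CPM in the controls, from 17.4 through 22.7 to 24.6 CPM at 1 Hz, from 18.9 through 21.4 to 23.9 CPM at 4 Hz, and from 22.0 through 28.1 to 30.6 CPM at 10 Hz. At 10 Hz, 5 of 6 libraries exceeded all controls, with a log2(fold change) of 0.21 ± 0.09 that did not pass (adjusted p = 0.549). At 4 Hz it was -0.15 on TMM-scaled counts and did not pass (adjusted p = 0.188), but it fell on the TPM scale (-0.40, adjusted p = 0.0187). Relative to the median of all genes that TPM value was -0.20. Pfkfb4 was higher at 10 Hz than at 1 Hz by 0.31 ± 0.09 (adjusted p = 0.0147) and than at 4 Hz by 0.35 ± 0.09 (adjusted p = 0.00322), and on the TPM scale by 0.43 (adjusted p = 0.0307) and 0.55 (adjusted p = 0.00277). The medians of all genes in these TPM comparisons were 0.132 and 0.204.

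On TMM-scaled counts, glycogen breakdown showed 2 of 7 rows higher at 1 Hz (19.2% of all genes), namely Pygl and Pygb, and 2 of 7 at 4 Hz (27.5%), namely Pygb and Pgm1, which is near the background. Pygb, the brain-type phosphorylase, ran from 34.2 through 37.8 to 43.0 CPM in the controls, from 36.4 through 47.5 to 50.7 CPM at 1 Hz, from 41.5 through 44.4 to 52.8 CPM at 4 Hz, and from 37.8 through 39.2 to 41.2 CPM at 10 Hz. Of 6 libraries each, 5 at 1 Hz and 4 at 4 Hz exceeded all controls. Pygb rose by 0.29 ± 0.08 at 1 Hz (adjusted p = 0.00621) and by 0.27 ± 0.08 at 4 Hz (adjusted p = 0.00737), with 0.07 and -0.0041 on the TPM scale. Without 4 Hz replicate 4 its adjusted p at 4 Hz was 0.0512. Pygl, the liver-type phosphorylase, was scarce, from 3.0 through 3.87 to 4.98 CPM in the controls, 3.98 through 5.51 to 6.47 CPM at 1 Hz, 3.72 through 5.10 to 7.06 CPM at 4 Hz, and 2.5 through 3.87 to 4.86 CPM at 10 Hz. It rose at 1 Hz by 0.43 ± 0.17 (adjusted p = 0.0441), a call that was lost in 9 of 12 runs that left out 1 library (controls 1 to 4 and 1 Hz 1 to 5; adjusted p from 0.0577 to 0.134). Pgm1, which interconverts glucose 1-phosphate and glucose 6-phosphate, ran from 271 through 292 to 309 CPM in the controls, from 259 through 314 to 391 CPM at 1 Hz, from 308 through 343 to 397 CPM at 4 Hz, and from 262 through 280 to 294 CPM at 10 Hz. Pgm1 rose at 4 Hz by 0.24 ± 0.08 (adjusted p = 0.00906; 0.0536 without 4 Hz replicate 4), with -0.09 on the TPM scale.

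Pygm, the muscle phosphorylase that is deficient in McArdle disease, did not pass in any comparison with control on TMM-scaled counts. At 1 Hz it was -0.12 there (adjusted p = 0.363), but it fell by 0.31 on the TPM scale (limma, adjusted p = 0.0376), by 0.24 without the 5 libraries that stood apart (edgeR, adjusted p = 0.0485), and by 0.24 without 1 Hz replicate 4 alone (edgeR, adjusted p = 0.0339). Relative to the median of all genes, Pygm on the TPM scale was -0.17 at 1 Hz. It made up 85.5% ± 0.81 of the summed phosphorylase TPM in the controls and had a mean of 185 ± 12.1 CPM there (SD, n = 6), beside means of 171 ± 37.7 for 1 Hz, 194 ± 10.5 for 4 Hz, and 156 ± 9.2 for 10 Hz. In CPM every 10 Hz library lay below every control and every 4 Hz library, whereas in TPM the 10 Hz libraries (81.7 to 92.1) lay below the controls but within the range at 4 Hz (71.4 to 101). The log2(fold change) at 10 Hz was -0.25 ± 0.10 against control (adjusted p = 0.504) and -0.32 ± 0.10 against 4 Hz (adjusted p = 0.0114), and the latter was 0.02 on the TPM scale (adjusted p = 0.909). The median of all genes in that TPM comparison was 0.204. Phka1, Phkg1, and Pgm2 did not pass in any comparison with control on TMM-scaled counts. Phka1, a regulatory subunit of phosphorylase kinase, fell at 4 Hz on the TPM scale (-0.35, adjusted p = 0.0239), or by -0.14 relative to the median of all genes. Its TMM-scaled value at 4 Hz was -0.05, and Phkg1 was too low to be tested on the TPM scale.

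In glycogen synthesis, 1 of 3 rows rose at 1 Hz (19.2% of all genes) and 2 of 3 at 4 Hz (27.5%) on TMM-scaled counts. Gbe1, the branching enzyme, ran from 181 through 190 to 216 CPM in the controls, from 208 through 244 to 285 CPM at 1 Hz, from 229 through 242 to 254 CPM at 4 Hz, and from 168 through 194 to 211 CPM at 10 Hz. Every 4 Hz library and 5 of 6 libraries at 1 Hz were above all controls. Gbe1 rose by 0.31 ± 0.07 at 1 Hz (adjusted p = 0.00185) and by 0.31 ± 0.07 at 4 Hz (adjusted p = 0.00107), with 0.14 and -0.0257 on the TPM scale. Gys1, the muscle glycogen synthase, ran from 366 through 380 to 416 CPM in the controls, from 299 through 406 to 448 CPM at 1 Hz, from 392 through 443 to 494 CPM at 4 Hz, and from 326 through 346 to 360 CPM at 10 Hz. It rose at 4 Hz by 0.21 ± 0.08 (adjusted p = 0.0319; -0.13 on the TPM scale), but the call was lost in 8 of 12 runs that left out 1 library (controls 2 to 5 and 4 Hz 1, 2, 4, or 5; adjusted p from 0.0508 to 0.120). In CPM every 10 Hz library lay below every control, with -0.17 ± 0.08 (adjusted p = 0.594), and below every 4 Hz library, with -0.37 ± 0.08 (adjusted p = 0.000559). Neither separation held in TPM, where the difference from 4 Hz was -0.06 (adjusted p = 0.752), beside a median of all genes of 0.204. Ugp2, which makes UDP-glucose, ran from 387 through 422 to 479 CPM in the controls, from 366 through 444 to 659 CPM at 1 Hz, from 364 through 449 to 533 CPM at 4 Hz, and from 324 through 355 to 406 CPM at 10 Hz. On TMM-scaled counts Ugp2 did not pass against control (0.06 at 4 Hz), whereas on the TPM scale it fell at 4 Hz (-0.26, limma, adjusted p = 0.0150). Relative to the median of all genes on the TPM scale that value was only -0.05. It was lower at 10 Hz than at 1 Hz by -0.43 ± 0.11 (adjusted p = 0.0051) and than at 4 Hz by -0.32 ± 0.11 (adjusted p = 0.021) on TMM-scaled counts. These values were -0.23 (adjusted p = 0.0554) and 0.01 (adjusted p = 0.922) on the TPM scale, beside medians of all genes of 0.132 and 0.204.

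The 10 Hz condition gave no call among the 38 rows in edgeR, nor in any alternative run, DESeq2 included. An unadjusted p under 0.05 was found for 10 rows, where 8.07% of all genes had one, namely Slc2a3, Slc2a4, Hk2, Aldoc, Pgam1, Eno3, Pfkfb4, Pygm, Gys1, and Ugp2. In CPM the libraries at 10 Hz were all above the controls for Slc2a3 and Pgam1 (0.774% of all genes) and all below them for Slc2a4, Pygm, and Gys1 (0.864% of all genes). In TPM the ranges at 10 Hz and in the controls overlapped for Pgam1, Slc2a4, and Gys1, and stayed apart for Slc2a3 and Pygm.

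The stimulated groups were also compared with each other. Between 4 and 1 Hz, 0 rows passed in edgeR (0% of all genes in either direction), and 4 rows had an unadjusted p under 0.05 (11% of all genes), namely Slc2a1, Hk1, Bsg, and Gys1. Relative to 1 Hz, 2 rows were higher at 10 Hz (14.8% of all genes) and 12 were lower (13.1%). Relative to 4 Hz, 2 were higher (21.9%) and 21 were lower (24.4%). The 2 that were higher were Hk2 and Pfkfb4 in both comparisons, on the TPM scale too, although Hk2 did not pass with the trend on length removed (0.15 and 0.11), and the rows lower than at 1 Hz included Slc2a3 (-0.59 ± 0.13, adjusted p = 0.00169), Pfkp (-0.29 ± 0.07, adjusted p = 0.00223), and Gbe1 (-0.34 ± 0.07, adjusted p = 0.00143), none of which passed in TPM. Relative to 4 Hz, Slc2a3 was lower by -0.82 ± 0.13 (adjusted p = 2.28e-05), Ldhb by -0.63 ± 0.14 (adjusted p = 0.000963), Pgam2 by -0.54 ± 0.14 (adjusted p = 0.00371), and Bsg by -0.49 ± 0.08 (adjusted p = 6.17e-05). Of these, Slc2a3 (-0.40), Ldhb (-0.32), and Bsg (-0.18) also passed in TPM. For 12 rows every 10 Hz library in CPM lay below every 4 Hz library, against 8.1% of all genes, and these included Pfkm, Pgk1, Pygm, Pygb, Pgm1, and Gbe1. Without the 5 libraries that stood apart, 7 rows were lower than at 1 Hz (9.5% of all genes) and 16 lower than at 4 Hz (12.6%). On the TPM scale, where the median of all genes moved by 0.132 and 0.204, 0 rows were lower and 3 higher than at 1 Hz (2.19% and 15.5% of all genes), and 3 were lower and 7 higher than at 4 Hz (5.06% and 33.2%). These comparisons share libraries with those against control and are not independent of them.

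Ratios of 2 isozymes within the same library do not depend on how libraries are scaled against each other, although they do depend on how transcript length is handled. In all, 10 pairs were compared at 3 frequencies, with two-sided exact permutation tests over 6 against 6 libraries (smallest possible p = 0.0021645) and adjustment over the 30 tests. Of these, 7 passed in TPM, all with a lower share of the isozyme named first, and 13 passed when the same ratios were taken on TMM-scaled CPM, 1 of them (Pgam2 to Pgam1 at 4 Hz) with a higher share. The log2 ratio of Hk2 to Hk1 in TPM had a mean of 0.04 ± 0.14 in the controls (SD, n = 6), beside means of -0.43 ± 0.21 for 1 Hz, -0.71 ± 0.13 for 4 Hz, and -0.12 ± 0.17 for 10 Hz. It ran from -0.12 to 0.19 in the controls and from -0.96 to -0.61 at 4 Hz, with no overlap, and 5 of 6 libraries at 1 Hz were below all controls. The difference from control was -0.47 ± 0.10 (SE) at 1 Hz (exact permutation test, adjusted p = 0.0260) and reached -0.75 ± 0.08 at 4 Hz (exact permutation test, adjusted p = 0.0216). Without the 5 libraries that stood apart it was -0.58 ± 0.07 and -0.72 ± 0.07. Since Hk2 is the longer transcript, the ratio was also taken after removing the trend on length, which gave -0.55 and -0.70.

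The other 5 ratios that passed in TPM set a muscle isozyme against a partner expressed in other tissues. The log2 ratio of Pfkm to Pfkp was 1.86 ± 0.11 in the controls and 1.58 ± 0.11 at 1 Hz, with all 6 libraries at 1 Hz below all controls (-0.29 ± 0.07 SE; exact permutation test, adjusted p = 0.0216). Aldoa to Aldoc fell from 7.09 ± 0.19 in the controls to 6.73 ± 0.17 at 1 Hz (-0.36 ± 0.10 SE; exact permutation test, adjusted p = 0.0278) and to 6.76 ± 0.08 at 10 Hz (-0.33 ± 0.08 SE; exact permutation test, adjusted p = 0.0216). The 1 Hz difference did not pass on TMM-scaled CPM (-0.24 ± 0.10 SE) and was lost without control 3 (adjusted p = 0.0519) or 1 Hz replicate 2 (adjusted p = 0.0557). At 10 Hz the ratio of Eno3 to Eno1 was lower by -0.30 ± 0.08 (exact permutation test, adjusted p = 0.0278) and that of Pygm to Pygb by -0.28 ± 0.06 (exact permutation test, adjusted p = 0.0260). The first was lost without any 1 of 8 libraries (controls 1 to 3 and 10 Hz 1, 2, 4, 5, or 6; -0.25 to -0.31, adjusted p = 0.0557) and the second without control 1 or control 3 (-0.26 and -0.28, adjusted p = 0.0541), so that the differences themselves moved little. The ratio of Pgam2 to Pgam1 was 0.27 ± 0.11 higher at 4 Hz and 0.32 ± 0.11 lower at 10 Hz, and neither passed (exact permutation test, adjusted p = 0.0849 and 0.0844). The 4 Hz difference was 0.29 on TMM-scaled CPM (exact permutation test, adjusted p = 0.0450), 0.02 with the trend on length removed, and 0.11 without the 5 libraries that stood apart. The 10 Hz difference passed on TMM-scaled CPM (-0.35; exact permutation test, adjusted p = 0.0325) and with the trend on length removed (-0.36; exact permutation test, adjusted p = 0.00812).

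The 5 libraries that stood apart moved several ratios at 1 Hz. Without them, Eno3 to Eno1 went from -0.31 (exact permutation test, adjusted p = 0.218) to -0.59 (0.0204), Pygm to Pygb from -0.39 (0.106) to -0.62 (0.0204), and Pgam2 to Pgam1 from -0.03 (0.976) to -0.34 (0.0317). Some ratios that did not pass in TPM passed both on TMM-scaled CPM and with the trend on length removed. At 10 Hz these included Slc2a4 to Slc2a1, at -0.59 in TPM (exact permutation test, adjusted p = 0.0849), -0.46 on CPM (0.0130), and -0.46 with the trend removed (0.00812), and also Pfkm to Pfkl, at -0.18 in TPM and -0.22 on either of the others. Pygm to Pygb did so at 1 Hz (-0.43 on CPM and -0.47 with the trend removed) and at 4 Hz (-0.20 and -0.25). Ldha to Ldhb was -0.06 ± 0.15 (SE) in TPM at 1 Hz, and 0.14 without the 5 libraries that stood apart. At 4 Hz it was -0.21 in TPM (exact permutation test, adjusted p = 0.0928) and passed on TMM-scaled CPM (-0.22, 0.0450). With the trend on length removed it was -0.14 and did not pass (0.139). The summed muscle markers also ran lower at 1, 4, and 10 Hz than in the controls, with overlap, as given above, and their part in these ratios was not tested.

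**Figure D5:**
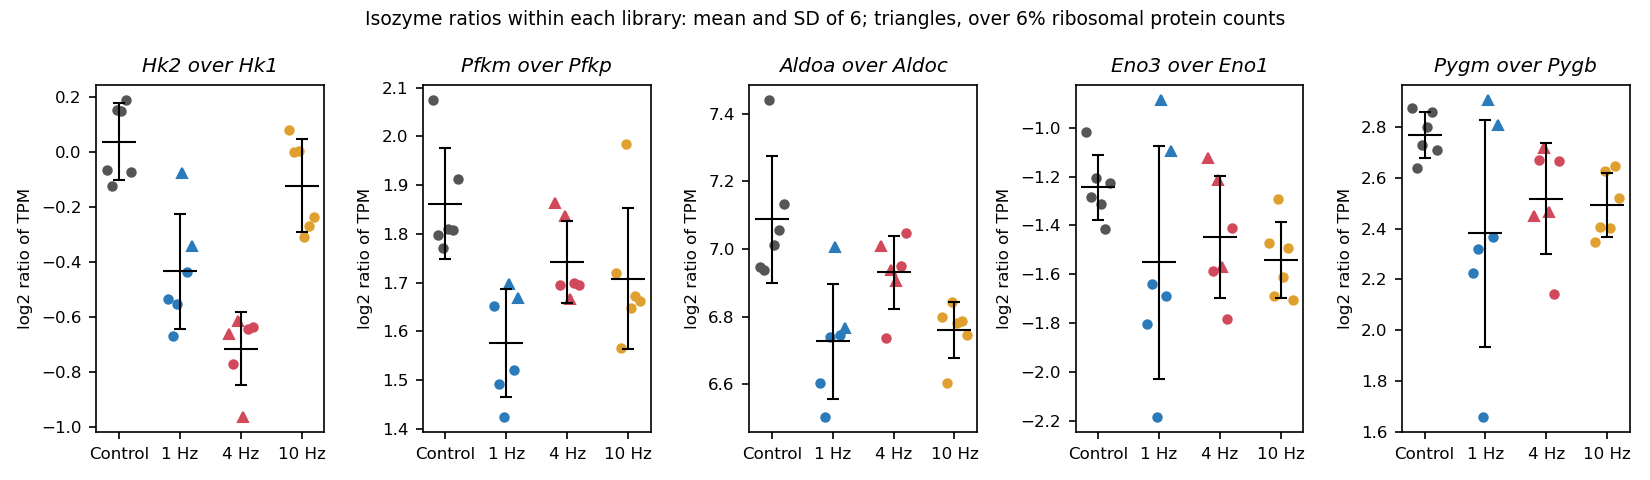
Log2 ratio of TPM within each library for 5 pairs of isozymes, by group. Each point is 1 library, lines show the mean and SD of 6, and triangles mark the 5 libraries that stood apart. The Hk2 to Hk1 ratio falls from about 0 in the controls to between -0.96 and -0.61 at 4 Hz, and the 10 Hz libraries return toward the controls.

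Other genes of the same pathways were followed as a second list of 46 symbols, of which 26 passed the filter. On TMM-scaled counts, 9 of 26 rose and 2 fell at 1 Hz (19.2% and 18.1% of all genes), and 11 rose and 4 fell at 4 Hz (27.5% and 23.9%). At 10 Hz 0 passed in edgeR, and 2 of the 26 had an unadjusted p under 0.05, a share near the 8.07% of all genes. Eno2, the neuronal enolase, had a mean of 250 ± 47.8 CPM in the controls (SD, n = 6), rose to 445 ± 98.5 for 1 Hz and 499 ± 89.7 for 4 Hz, and stood at 239 ± 68.5 for 10 Hz. Its log2(fold change) was 0.83 ± 0.17 at 1 Hz (adjusted p = 0.000568) and reached 1.00 ± 0.17 at 4 Hz (adjusted p = 4.79e-05). Tigar, a phosphatase that lowers fructose 2,6-bisphosphate, fell from a control mean of 24.1 ± 2.0 CPM to 14.5 ± 3.1 (1 Hz) and 12.5 ± 1.9 CPM (4 Hz) (-0.74 ± 0.13 and -0.94 ± 0.14). Pgp, a phosphatase that clears side products of glycolysis, fell from 68.6 ± 7.5 CPM to 45.9 ± 3.2 CPM and 41.9 ± 2.4 CPM (-0.58 ± 0.08 and -0.71 ± 0.08). Eno2, Tigar, and Pgp passed in the same direction on all 3 scales at both frequencies. Epm2a, the glycogen phosphatase laforin, and Mpc2, a subunit of the mitochondrial pyruvate carrier, rose at 4 Hz by 0.53 ± 0.10 and 0.63 ± 0.18 on TMM-scaled counts but did not pass on the TPM scale (adjusted p = 0.120 and 0.108).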

How the data were processed

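RNA from 24 C2C12 muscle tissues (4 groups of 6) was sequenced after poly(A) selection in 50-base paired-end reads, and the labels state that low-input samples were ribodepleted instead, without naming them. The authors deposited 1 table of estimated counts and 1 of TPM per gene over all libraries. The submitters' processing notes list STAR, Salmon, BWA 0.7.12-r1039, and bedtools 2.25.0, with the builds GRCm39, mm10, and hg19. The study used a directional library kit, but which strand was counted is not given in the sources used here. Of the 38 rows, 26 overlap a gene on the other strand. Poly(A) selection, fragmentation, and ribodepletion can shift short against long transcripts between libraries.

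Estimated counts as the authors deposited them were rounded (6.147% were not whole within 0.001) and tested with edgeR 4.0.16 (R 4.3.3): filterByExpr with a minimum count of 10 and a minimum total of 15, TMM scaling, 1 robust quasi-likelihood fit over the 24 libraries, and Benjamini-Hochberg adjustment over 13315 genes, called at adjusted p under 0.05. SE is the absolute log2 fold change over the square root of F. TPM values as deposited were used for levels, isozyme ratios, and limma 3.58.1 on log2(TPM + 1), over genes at 1 TPM or more in 6 libraries. Alternatives were RLE and upper-quartile scaling, no filter, at least 50 counts in 6 libraries, the 2 groups alone, a replicate block, DESeq2 1.42.0, a pseudocount of 0.1, and leaving out each library. After seeing the data, a length offset (loess, span 0.5), omission of the 5 libraries with over 6% ribosomal protein counts, and addition of near-identical copies (BLAST 2.17.0, 95% identity over 50% of the transcript) were added. The test scripts were checked on simulated counts for the controls and 1 Hz. There edgeR recovered 53.5% of changes of 0.5 log2 units and 90% of changes of 1. Smaller changes were not simulated, so a row that did not pass may still have changed. No pair of libraries agreed within sampling noise.

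The genes, lists, and tests were chosen with earlier results of these data known. Lowest, median, and highest values are printed for the 3 genes with the smallest p within each role and for genes called with an absolute log2 fold change over 0.5, and of the other pathway genes at most 6 are named, those called with an absolute log2 fold change over 0.5. Gene positions are from GENCODE M39 on GRCm39, which held 98.9% of the gene identifiers. Figures were drawn with matplotlib 3.10.9.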

Additional observations from a re-analysis of the deposited data

Results flagged for a closer look

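Of 192 checks of a group of 6 libraries (38 rows and 10 ratios in 4 groups), 7 had 1 library far from the other 5 by Dixon's test, and chance flags about 1 in 20. Aldoa was 4995 CPM in 1 Hz replicate 4, against 3336 to 3947 in the others, and Pfkfb4 was 17.4 CPM in the same library, against 22.0 to 24.6. Tpi1 was 2307 CPM in 4 Hz replicate 4, against 1525 to 1804. Both libraries are among the 5 with over 6% ribosomal protein counts. Aldoc was 25.1 CPM in control replicate 3, against 33.4 to 36.0 in the other controls. At 10 Hz, Slc16a3 was 125.0 CPM in replicate 2, against 95.1 to 106, Phkg1 was 1.89 CPM in replicate 3, against 0.475 to 0.941, and the log2 ratio of Pfkm to Pfkp was 1.99 in replicate 3, against 1.57 to 1.72.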

How the results depend on the processing

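At 1 Hz, 8 rows rose and 1 fell, and at 4 Hz 19 rose and 2 fell. The number that rose became 1 and 2 with limma on log2(TPM + 1) (3.58% and 5.83% of all genes) and on log2(TPM + 0.1) (3.54% and 5.63%). It became 12 at 4 Hz without the 5 libraries rich in ribosomal protein counts (16.9%). When an absolute log2 fold change over 0.5 was also asked, it became 1 and 2 (7.19% and 12.8%). The number that fell at 1 Hz became 2 with RLE scaling (18.6% of all genes), no filter (8.17%), at least 50 counts (21.7%), or DESeq2 (18.1%). It became 3 with the length offset (19.1%), 4 without the 5 libraries (16.4%), 6 with either TPM test (21.9% and 21.5%), and 0 with the fold rule. At 4 Hz the number that fell became 9 with either TPM test (35.9% and 35.8%), 1 with the length offset (24.6%) or without the 5 libraries (19.9%), and 0 with the fold rule. The median log2 fold change became -0.0953 and -0.0954 at 1 Hz and -0.0884 and -0.0889 at 4 Hz with the pseudocounts of 1 and 0.1. In place of 7 ratios, 13 were called on TMM-scaled CPM and 13 with the length offset. The cause was not tested.

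Between TMM-scaled counts and log2(TPM + 1), the sign turned for 16 of 37 rows at 1 Hz, 19 at 4 Hz, and 10 at 10 Hz. Those called on either scale were 0, 14, and 0. At 4 Hz the median of all genes on log2(TPM + 1) was itself -0.209. Of the rows named next, Slc2a1, Slc16a1, and Ugp2 lay below that median (-0.109, -0.074, and -0.050 relative to it). The others lay above it, by 0.065 (Pfkl) to 0.207 (Hk1). The 14 at 4 Hz, with values on log2(TPM + 1) and log2(TPM + 0.1), were Slc2a1 (-0.318 and -0.319), Hk1 (-0.0017 and -0.0020), Gpi1 (-0.0396 and -0.0397), Pfkm (-0.0692 and -0.0696), Pfkl (-0.144 and -0.146), Aldoa (-0.0848 and -0.0848), Gapdh (-0.0147 and -0.0147), Ldha (-0.0614 and -0.0615), Slc16a1 (-0.283 and -0.285), Pygb (-0.0041 and -0.0055), Gys1 (-0.128 and -0.129), Pgm1 (-0.0884 and -0.0889), Ugp2 (-0.259 and -0.260), and Gbe1 (-0.0257 and -0.0260).

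Leaving out 1 library gave 7 to 9 rows that rose and 1 to 4 that fell at 1 Hz, 12 to 21 and 1 to 2 at 4 Hz, and 0 at 10 Hz. The 12 came without 4 Hz replicate 4, where the share of all genes that rose was also lower, as given above. The 4 came without control 6 or 1 Hz replicate 4. The medians ran from 0.049 to 0.153, from 0.157 to 0.264, and from -0.022 to 0.011, and 4 to 9 ratios were called. With the replicate number as a block, 0 ratios were called, since 6 sign flips cannot reach a p below 0.03125. Equal numbers did not pair the libraries (correlations of -0.172 to 0.168, best with the own number in 0, 2, and 0 of 6), and the block moved no count of rows by over 1.5 times. The rows with the fewest counts reached 3 counts in a library, which limits their precision.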
